A study of Drosophila melanogaster with 9 samples.

Results

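The region described is the stretch of the P(lacW) transgene that the cluster shares with its reporter, 3547 bp that start at position 87, and its members are all 5′ positions of small RNAs on both strands there. P(lacW) copies inserted in tandem make up BX2, a locus that can be silent or can act as a piRNA cluster in the Drosophila melanogaster ovary. The stretch runs from the transcription start in the P-element 5′ sequence to the end of lacZ, the gene of the bacterial enzyme ß-Galactosidase, and is also carried by the euchromatic P-lacZ reporter P(TARGET). It holds 7094 of the 21380 strand positions of P(lacW), that is 33.2% of its 10690 bp. At least 1 read started at 3128 of these positions in any library of the first experiment, of 8810 over the whole transgene, and at 105 positions in the second experiment, of 434.

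The first experiment had 1 ovarian library per genotype, all from flies at 25°C. BX2Θ (BX2theta in the labels) is a cluster switched on by rearing at 29°C over generations, sequenced in flies that carried P(TARGET). BX2* is a cluster switched on by maternally inherited homologous piRNAs, sequenced in flies without P(TARGET), and that library was taken from earlier work. BX2OFF, the silent state, was sequenced with P(TARGET). The second experiment had 3 libraries of BX2OFF without P(TARGET) raised at 29°C and 3 raised at 25°C. All flies carried BX2, which is kept over a balancer chromosome, in a w1118 background, and each library came from pooled ovaries. Reads of the BX2Θ and BX2OFF libraries of the first experiment can come from the cluster or from the reporter, and these sources cannot be told apart. Reads from the single copies in the tandem cannot be told apart either. BX2Θ differs from BX2* in the reporter, in the history of the cluster and in the earlier work that the BX2* library came from. BX2* differs from BX2OFF of the first experiment in the reporter and in that source, as well as in its state. These differences cannot be told apart.

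piRNAs are small RNAs of about 23–29 nt that guide PIWI proteins to complementary transcripts and keep transposable elements silent in the animal germline. Germline clusters of Drosophila give piRNAs from both strands. In the ping-pong cycle a PIWI protein cuts the target 10 nt from the 5′ end of its guide, which leaves pairs of sense and antisense piRNAs whose 5′ ends overlap by 10 nt. Antisense here means antisense to lacZ, the strand that can pair with the reporter's mRNA.

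Library totals were 3951462, 3871488 and 3621703 miRNA reads for BX2Θ, BX2* and BX2OFF with the reporter, and 6374911 to 8472003 in the second experiment. Values in miRNA rpm are reads per 1000000 of those miRNA reads. The libraries of the first experiment hold all reads of 18–29 nt with no length per position, and 75.2%, 78.1% and 44.7% of the P(lacW) reads in BX2Θ, BX2* and BX2OFF were 23–29 nt long. Each of these 3 libraries also held many reads of 42AB, a germline piRNA cluster: 2093549 in BX2Θ, 2499783 in BX2* and 2075646 in BX2OFF. With 1 library per genotype there is no replicate check and no test in the first experiment, so each interval there is a 95% counting interval (Wilson for shares) that covers counting error only. In such bulk ovaries, fewer germ cells and less RNA per cell cannot be told apart.

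Small RNAs of the shared stretch were abundant on both strands in both active clusters and sparse in the silent one. BX2Θ had 26910 reads, or 6810 miRNA rpm (6730–6892). BX2* had 12769 reads, or 3298 miRNA rpm (3242–3356). BX2OFF with the reporter had 385 reads, or 106 miRNA rpm (96.2–117). The level in BX2Θ was thus 64.1 times that in BX2OFF (57.9–70.8), and that in BX2* was 31.0 times (28.0–34.3). On the antisense strand the ratio of BX2Θ to BX2OFF was 80.0 (68.6–93.3), and on the sense strand it was 52.2 (45.7–59.7). For BX2* over BX2OFF these ratios were 35.7 (30.6–41.7) for antisense and 27.5 (24.1–31.5) for sense reads.

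The 2 active clusters differed more in this stretch than in the rest of the transgene, the 7057 bp after it. BX2Θ had 2.06 times the level of BX2* in the stretch (2.02–2.11), against 1.504 times in the rest (1.48–1.53). The stretch held 41.7% of all P(lacW) reads in BX2Θ (41.3–42.1) and 34.3% in BX2* (33.8–34.8). The ratio of these ratios, in which the library totals cancel, was 1.37 (1.34–1.41). It was 1.66 for antisense reads (1.59–1.73) and 1.18 for sense reads (1.14–1.23). Against BX2OFF with the reporter, the ratio of ratios over both strands was 0.96 for BX2Θ (0.84–1.10), an interval that includes 1, and 0.70 for BX2* (0.61–0.80). Split by strand, the values for BX2Θ were 1.86 for antisense (1.53–2.25) and 0.55 for sense reads (0.46–0.67). For BX2* they were 1.12 for antisense (0.92–1.36), an interval that includes 1, and 0.47 for sense reads (0.39–0.56).

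**Figure D1:**
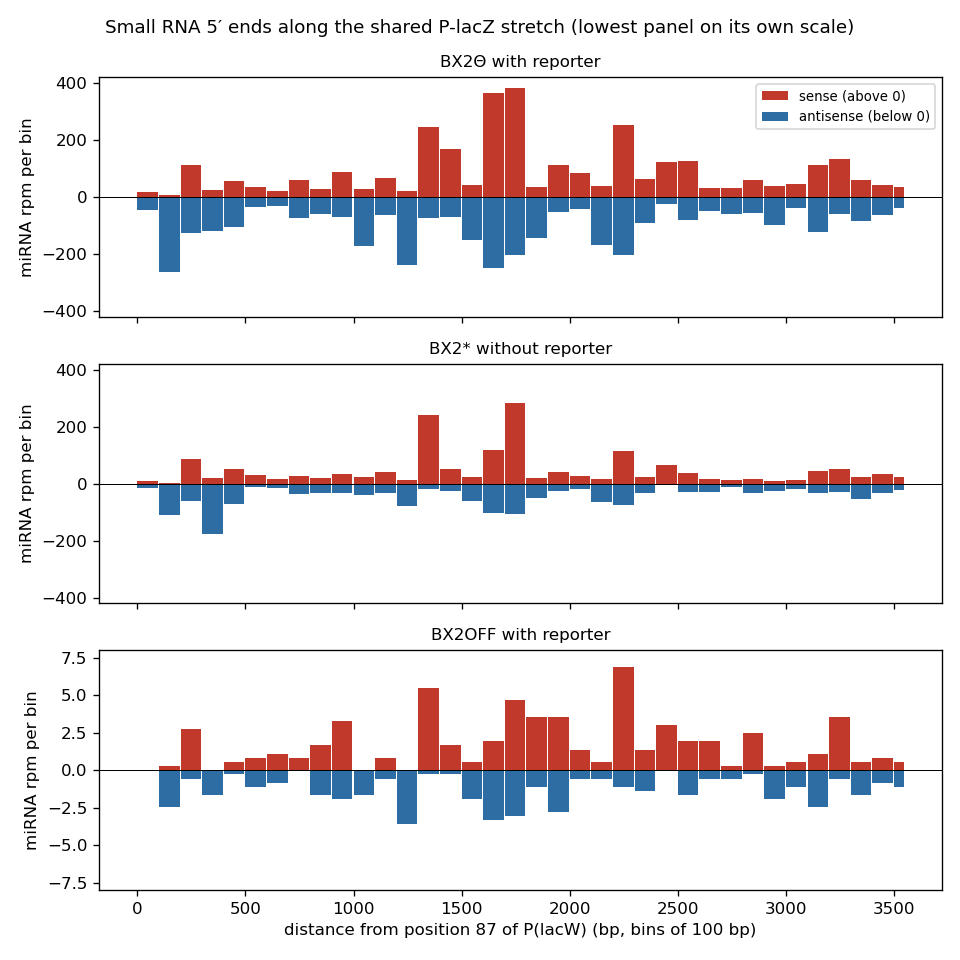
Reads starting in each bin of 100 bp of the shared stretch, in miRNA rpm, with sense reads above and antisense reads below 0, against the distance from position 87. BX2Θ and BX2* share a scale and the BX2OFF panel has its own, since its 385 reads are spread over the stretch against 26910 in BX2Θ and 12769 in BX2*.

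The bases on either side of the stretch and its 5′ inner edge carried few reads. In the 86 bases before position 87, BX2Θ had 159 reads, BX2* 62 and BX2OFF with the reporter 1. In the 100 bp just after the stretch the reads numbered 141 in BX2Θ, 58 in BX2* and 1 in BX2OFF. Just inside, the first 100 bp held 249 reads in BX2Θ, 103 in BX2* and none in BX2OFF, where a count of 0 allows up to 3 reads. The last 100 bp held 609 reads in BX2Θ, 368 in BX2* and 10 in BX2OFF. The mean over the stretch was 759 reads per 100 bp in BX2Θ, 360 in BX2* and 10.9 in BX2OFF, so both inner edges of BX2Θ and the 5′ inner edge of BX2* lay under the mean of their library.

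Strand use in the stretch was close to even and more antisense than in the rest of the transgene. Antisense reads made up 53.2% of the stretch in BX2Θ (52.6–53.8), against 35.3% of the rest. In BX2* they made up 49.1% of the stretch (48.2–49.9), against 39.4% of the rest. The stretch exceeded the rest by 17.9 percentage points in BX2Θ (17.1–18.6) and by 9.71 points in BX2* (8.65–10.8). BX2OFF with the reporter went the other way, with 42.6% antisense in the stretch (37.8–47.6) and 54.5% in the rest, a difference of -11.9 points (-18.3 to -5.26). BX2* thus lay just under 50%, and its share passed 50% when each occupied position was counted once (51.6%).

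The nearly even total was made of bins with unlike shares, some close to even and some leaning strongly to one strand. The classes used here mark a side of 50% and not a strong lean. Of the 36 bins of 100 bp (the last of 47 bp), all of which had at least 20 reads in BX2Θ and in BX2*, 19 were antisense in BX2Θ, meaning that the whole interval of the share lay above 50%, beside 34.6% of all P(lacW) bins. Another 11 were sense, beside 53.3% of all bins, and 6 were neither. In BX2*, 15 bins were antisense, beside 33.6% of all bins, 12 were sense, beside 48.6%, and 9 were neither. The share per bin ran from 16.4% to 97.7% antisense in BX2Θ, with a median of 54.8%, and from 7.17% to 97.7% in BX2*, with a median of 51.1%. In BX2OFF with the reporter only 4 bins reached 20 reads, of which 2 were sense and none antisense.

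The most antisense bin in BX2Θ was bin 2, which starts 100 bp into the stretch. It had 1039 antisense and 25 sense reads in BX2Θ (97.7% antisense) and 432 antisense and 10 sense reads in BX2* (97.7%). Bin 13, from position 1287, followed with 940 antisense and 86 sense reads in BX2Θ (91.6%) and 303 and 46 in BX2* (86.8%). Both bins were therefore antisense in either active cluster, by nearly the same share. Bin 11, from position 1087, had 674 antisense and 116 sense reads in BX2Θ (85.3%), against 149 and 94 in BX2* (61.3%), and the intervals of its shares were apart.

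The 3 most sense bins in BX2Θ were also sense in BX2*. Bin 25, from position 2487, had 478 sense and 94 antisense reads in BX2Θ (16.4% antisense) and 259 and 23 in BX2* (8.16%). Bin 14, from position 1387, lies next to the strongly antisense bin 13 and had 969 sense and 295 antisense reads in BX2Θ (23.3% antisense) and 932 and 72 in BX2* (7.17%). It was also one of the sense bins in BX2OFF with the reporter, with 20 sense reads and 1 antisense read. Bin 15, from position 1487, had 671 sense and 282 antisense reads in BX2Θ (29.6% antisense) and 198 and 103 in BX2* (34.2%). The strand thus changed sharply at the border of bins 13 and 14 in both active clusters.

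Over the 36 bins, 14 were antisense in both active clusters, 9 were sense in both and 3 were neither in both. Among the 71 bins of the rest, these numbers were 16, 39 and 2, so such agreement was not particular to the stretch. Only bin 3, from position 287, was antisense in BX2Θ (53.4%) and sense in BX2* (40.9%), and no bin was sense in BX2Θ and antisense in BX2*. The antisense shares of the 2 libraries followed each other over the 36 bins with a Spearman rho of 0.86, a description of bins that share their sequence and base composition in both libraries. The intervals of the shares overlapped in 23 bins. In the other 13 they were apart, with BX2Θ more antisense in 9 and BX2* in 4. No such count was made over the rest of the transgene, so the 13 bins cannot be called particular to the stretch.

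**Figure D2:**
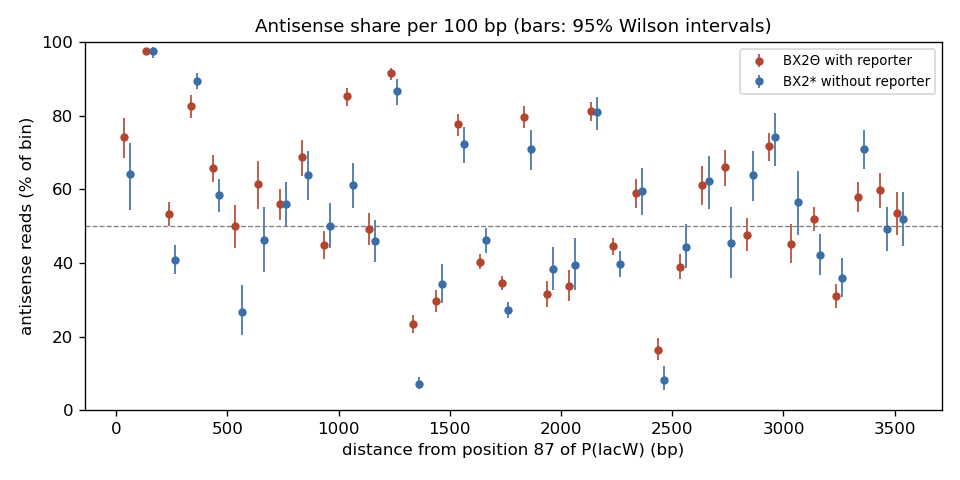
Antisense share of the reads in each 100 bp bin, in percent, against the distance from position 87, for BX2Θ and BX2*, with 95% Wilson intervals and a dashed line at 50%. Both libraries are highest in bin 2 (97.7%), BX2Θ is lowest in bin 25 (16.4%) and BX2* in bin 14 (7.17%), and the intervals are apart in 13 of the 36 bins.

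BX2Θ exceeded BX2* in most bins of the stretch, though not detectably in several sense bins. All 72 bins by strand had at least 20 reads in one of the 2 libraries, and 44 of them had at least 2 times the level in BX2Θ, beside 39.2% of the 209 such bins over all P(lacW), which include those of the stretch. The 44 bins are 61.1% of the stretch, against 26.7% of the 135 bins in the rest. By strand, 26 of 36 antisense bins were past 2 times, beside 40.4% over all P(lacW), and 18 of 36 sense bins, beside 38.1%. The cut-off of 2 times lies near the ratio over the whole stretch (2.06), so many bins pass it for that reason. The median ratio was 2.34 over antisense bins and 1.98 over sense bins of the stretch, against 1.55 and 1.77 in the rest. With genome-matched reads as the total, 35 of the 72 bins were past 2 times, a count without a share over all P(lacW) to set beside it.

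The bins with the highest ratios were antisense bin 28, from position 2787, with 238 reads in BX2Θ and 45 in BX2* (5.18 times, 3.77–7.12), and antisense bin 11, with 674 and 149 reads (4.43 times, 3.71–5.29). Sense bin 30, from position 2987, had 155 reads in BX2Θ and 36 in BX2* (4.22 times, 2.94–6.05). At the low end, antisense bin 4, from position 387, had 468 reads in BX2Θ and 690 in BX2* (0.66 times, 0.59–0.75). It was the one bin with a higher level in BX2*, where 481 of the 690 reads started at the single position 461. Sense bin 14 had 969 and 932 reads (1.02 times, 0.93–1.11), of which 197 and 545 started at position 1467. Sense bin 5, from position 487, had 216 and 198 (1.07 times, 0.88–1.30). These last 2 intervals include 1, so no difference was detectable there. The same holds for sense bins 4, 6, 7, 11 and 35, with ratios from 1.13 to 1.24.

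**Figure D3:**
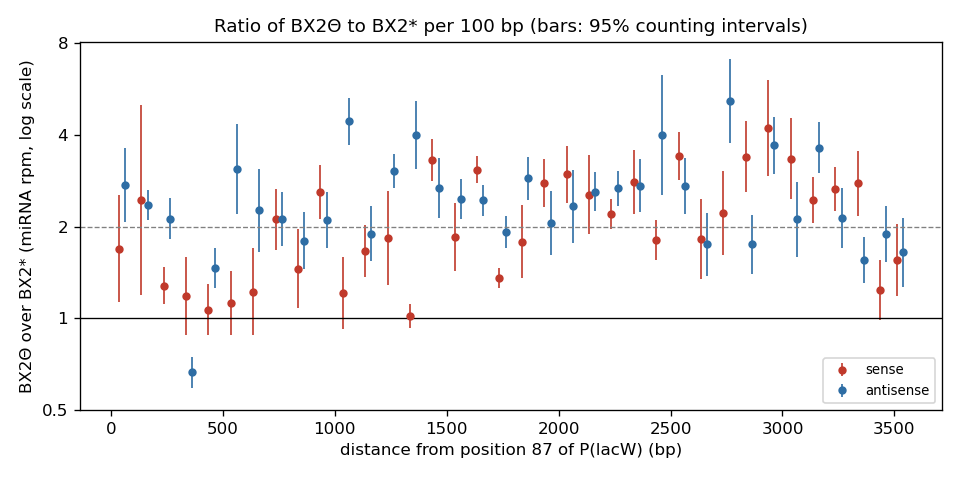
Ratio of BX2Θ to BX2* in miRNA rpm for each 100 bp bin and strand, on a log scale, against the distance from position 87, with 95% counting intervals, a solid line at 1 and a dashed line at 2. Points lie between 0.66 in antisense bin 4 and 5.18 in antisense bin 28, and 44 of the 72 are at or above the dashed line.

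Within bins, reads piled up at few positions. In BX2Θ, sense reads started at 1242 of 3547 positions (35.0%), antisense reads at 1399 (39.4%), and 50% of the reads came from 44 sense and 75 antisense positions. In BX2*, sense reads started at 980 positions (27.6%) and antisense reads at 1043 (29.4%), with 50% of the reads from 40 and 71 positions. The 10 most abundant sense positions held 29.6% of the sense reads in BX2Θ and 34.1% in BX2*, against 17.7% and 21.2% in the longer rest of the transgene. BX2OFF with the reporter had 143 sense and 106 antisense positions, with 1.55 reads per occupied position on either strand.

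A local peak is a position with at least 1% of the reads of its strand in the stretch that is the highest within 10 nt on either side. BX2Θ had 12 sense and 10 antisense peaks and BX2* had 7 and 9. On the sense strand, 6 positions were peaks in both, which is 50% of the peaks of BX2Θ and 85.7% of those of BX2*. On the antisense strand, 7 positions were peaks in both, which is 70% of the peaks in BX2Θ and 77.8% in BX2*. The peaks held 31.3% of sense and 20.4% of antisense reads in BX2Θ, and 30.3% and 21.6% in BX2*. Of the peaks of either library, only antisense position 461 of BX2* was empty in the other. More broadly, 58.9% of the sense and 59.4% of the antisense positions of BX2Θ also had reads in BX2*, beside 27.6% and 29.4% of all positions. Likewise, 74.6% and 79.7% of those of BX2* also had reads in BX2Θ, beside 35.0% and 39.4% of all positions.

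Sense position 1835 was the peak seen in most libraries. It held 927 of 12598 sense reads in BX2Θ (7.36%, 6.92–7.83), 736 of 6504 in BX2* (11.3%, 10.6–12.1) and 8 of 221 in BX2OFF with the reporter (3.62%, 1.85–6.98). It ranked second among sense positions in BX2Θ and first in BX2* and in BX2OFF, and its level in BX2Θ was 1.23 times that in BX2* (1.12–1.36). Position 1838, 3 nt further on, had 222 reads in BX2Θ, 126 in BX2* and 1 in BX2OFF. Both lie in bin 18, from position 1787, where both active clusters had their highest sense level of the stretch (1509 reads in BX2Θ, 1090 in BX2*).

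Sense position 1720 was the highest of all in BX2Θ, with 1196 reads (9.49%, 8.99–10.02), against 338 in BX2* (5.20%, 4.68–5.76) and none in BX2OFF. Its level in BX2Θ was 3.47 times that in BX2* (3.07–3.91). Sense position 1467 showed the opposite order, with 197 reads in BX2Θ (1.56%) and 545 in BX2* (8.38%), a ratio of 0.35 (0.30–0.42). Position 1491, 24 nt downstream of it, had 210 reads in BX2Θ and 15 in BX2* (13.7 times, 8.17–23.03). Summed within 5 nt, the ratio was 0.66 around position 1467 (496 and 731 reads, 0.59–0.75) and 8.01 around position 1491 (278 and 34 reads, 5.62–11.4). Sites 24 nt apart thus differed between the 2 active clusters in opposite directions, by less within 5 nt than at the single positions. Position 2000 had 234 reads in BX2Θ, 76 in BX2* and 7 in BX2OFF, where it ranked second. Position 370 had 136, 104 and 0 reads, a ratio of BX2Θ to BX2* of 1.28 whose interval (0.99–1.65) includes 1, while within 5 nt it was 1.27 (1.01–1.60).

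On the antisense strand, position 2317 led in BX2Θ with 600 of 14312 reads (4.19%, 3.88–4.53), against 198 of 6265 in BX2* (3.16%, 2.76–3.62). Position 228 followed with 481 reads in BX2Θ and 151 in BX2* (3.12 times, 2.60–3.75). These positions stood in the same rank order in both, below position 461 in BX2*. Position 1175 had 458 reads in BX2Θ and 63 in BX2* (7.12 times, 5.48–9.26), which is most of the 674 antisense reads of bin 11 in BX2Θ. Position 2262 had 243 and 104 reads, position 1697 had 235 and 73, and position 513 had 145 and 115. The interval of the ratio at position 513 (0.97–1.58) includes 1, while within 5 nt the ratio was 1.31 (1.10–1.55).

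None of the antisense positions 2317, 228, 461, 1175, 2262 and 513 had a read in BX2OFF with the reporter, while position 1697 had 2. Within 5 nt, BX2OFF had 5 reads around position 228, 5 around 1175 and 7 around 1697. It had 0 around positions 461, 513, 2262 and 2317. Its own highest antisense positions were 1868, with 6 reads against 48 in BX2Θ and 35 in BX2*, and 226, with 5 reads against 4 in BX2Θ and 4 in BX2*. Position 226 lies 2 nt from position 228, where BX2Θ and BX2* had their pile. Of the 143 sense positions of BX2OFF, 121 (84.6%) also had reads in BX2Θ, which is 9.74% of the sense positions of BX2Θ. Of its 106 antisense positions, 88 (83.0%) did, which is 6.29% of those of BX2Θ. Over all positions of the stretch, BX2Θ had reads at 35.0% on the sense and 39.4% on the antisense strand. The overlap with BX2* was similar, at 81.1% of the BX2OFF positions on either strand, beside 27.6% and 29.4% of all positions.

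Antisense positions 461, 1465 and 3353 were abundant in one active cluster and empty in the other. Position 461 had 481 reads in BX2* (7.68%, 7.04–8.36), the highest antisense position there, and 0 in BX2Θ, at least 163.6 times lower with the floor of 3 reads per library. Close by, BX2Θ had 167 reads at position 459 and 33 at position 458, where BX2* had 1 and 0. Within 5 nt of position 461 the sums were 201 reads in BX2Θ and 488 in BX2*, so the 2 libraries had their pile at the same place with 5′ ends 2 nt apart. Position 1465 had 100 reads in BX2Θ and 0 in BX2*, at least 32.7 times higher, and position 3353 had 108 and 0, at least 35.3 times higher. Within 5 nt the sums were 117 and 6 reads around position 1465 and 128 and 12 around position 3353, so there the whole pile was small in BX2*.

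Read pairs whose 5′ ends overlap by 10 nt were above the mean of the overlaps in both active clusters, without standing apart from all others. Pairs were counted for overlaps of 1 to 29 nt with both 5′ ends in the stretch, each pair of positions counting as the smaller of its 2 read numbers. BX2Θ had 1709 pairs at 10 nt against a mean of 1423, a z-score of 2.08, second to 1734 pairs at 25 nt (z 2.26). BX2* had 725 pairs at 10 nt against a mean of 601, a z-score of 1.70, second to 755 pairs at 24 nt (z 2.12). BX2OFF with the reporter had 4 pairs at 10 nt against a mean of 4.76 (z -0.32), too few to show a pattern. In the rest of the transgene the 10 nt z-score was 1.45 in BX2Θ and 2.11 in BX2*. On the 42AB cluster, counted the same way, the 10 nt overlap was the highest, with a z-score of 4.80 in BX2Θ, 4.82 in BX2* and 4.75 in BX2OFF. Reads of all lengths from 18 to 29 nt entered these counts.

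**Figure D4:**
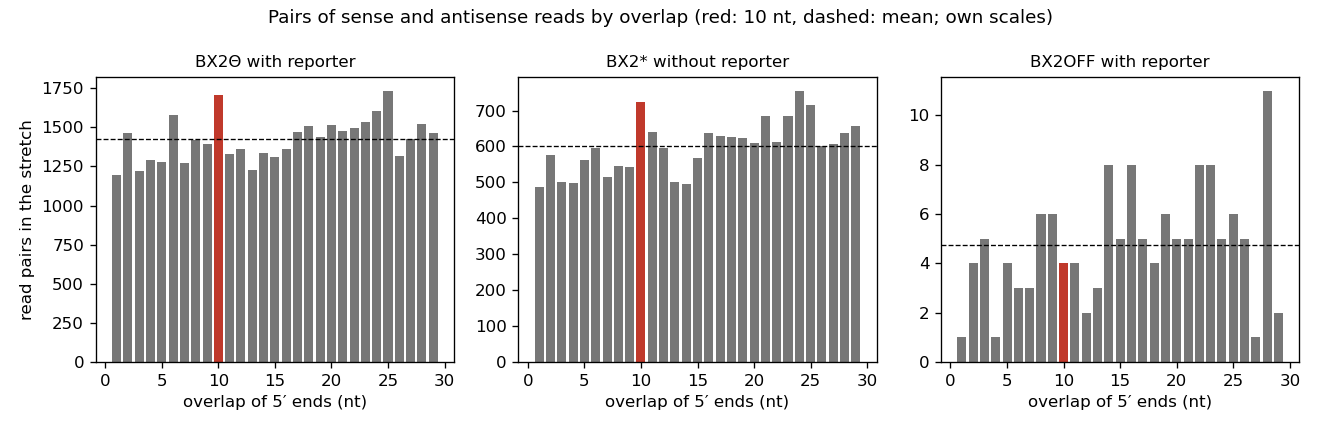
Number of sense and antisense read pairs in the shared stretch by the overlap of their 5′ ends, from 1 to 29 nt, in BX2Θ, BX2* and BX2OFF with the reporter, each on its own scale, with the 10 nt overlap in red and the mean as a dashed line. The 10 nt bar is second to 25 nt in BX2Θ (1709 against 1734 pairs) and to 24 nt in BX2* (725 against 755).

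The 10 nt pairs of BX2Θ were spread over 516 pairs of positions, and the 5 with most pairs held 281 of the 1709 (16.4%). The first joined sense position 1456, with 76 reads in BX2Θ and 1 in BX2*, to antisense position 1465, with 100 and 0. The second joined sense position 3344, with 71 reads in BX2Θ and 3 in BX2*, to antisense position 3353, with 108 and 0. The partners of both antisense positions that were abundant in BX2Θ and empty in BX2* were thus nearly empty in BX2* as well. Together these 2 pairs of positions held 147 read pairs, 8.60% of the 10 nt pairs, and without both antisense positions the z-score in BX2Θ was 1.17, with 2 other overlaps above it. That alternative was chosen after seeing the data.

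Of the other leading 10 nt pairs, those at sense positions 2308 and 370 were among the first 5 in both active clusters. Sense position 2308 with antisense position 2317 gave 61 pairs in BX2Θ and 35 in BX2*, where it was the first. Sense position 370 with antisense position 379 gave 39 pairs in BX2Θ and 26 in BX2*. Sense position 1463 with antisense position 1472 gave 34 pairs in BX2Θ and 6 in BX2*. In BX2* the list went on with 23 pairs at sense position 377 and antisense position 386, where BX2Θ had 37 sense and 33 antisense reads. Sense position 2610 with antisense position 2619 gave 23 pairs in BX2*, where the sense position had 8 reads in BX2Θ and 23 in BX2*. Sense position 1467 with antisense position 1476 gave 21 pairs in BX2*, where the antisense position had 7 reads in BX2Θ and 21 in BX2*. The abundant positions 1720 and 1835 on the sense strand and 228 and 1175 on the antisense strand were in none of these leading pairs.

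The 2 position pairs with most pairs at 25 nt in BX2Θ and at 24 nt in BX2* were not among the leading 10 nt pairs. In BX2Θ, sense position 1838 with antisense position 1862 gave 134 pairs at 25 nt and sense position 1835 with antisense position 1859 gave 74. In BX2*, sense position 1839 with antisense position 1862 gave 47 pairs at 24 nt and sense position 1836 with antisense position 1859 gave 37. These sites lie in bin 18. Antisense position 1472, in a leading 10 nt pair of BX2Θ, was also in a leading 25 nt pair there, with sense position 1448 (53 pairs). The 5 leading pairs held 21.5% of the 25 nt pairs in BX2Θ and 18.1% of the 24 nt pairs in BX2*.

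The second experiment asks whether 1 generation at 29°C changes the small RNAs of a silent cluster in flies without the reporter. Its tables hold reads of 23–29 nt only, so its levels were not set against those of the first experiment. The paper reports that nearly all small RNAs matching BX2 in these libraries were shorter than that, in like amounts at both temperatures. It reports no piRNAs from BX2 at either temperature. The values below therefore leave out the main size class of the silent cluster. Reads in the stretch numbered 73, 87 and 62 at 29°C, against 105, 86 and 69 at 25°C. In reads per 1000000 genome-matched reads (Dmel rpm), the levels were 2.32, 2.39 and 2.30 at 29°C, against 3.19, 2.69 and 2.20 at 25°C. The groups overlapped, since 1 library at 25°C lay below all 3 at 29°C. The level averaged 2.34 ± 0.04 Dmel rpm in the 29°C libraries and 2.69 ± 0.50 Dmel rpm in the 25°C libraries (SD, n = 3 per temperature), a difference of -0.36 (exact two-sided permutation test, p = 0.4, adjusted p = 0.625 over 5 values). With 3 against 3 libraries this test cannot give a p below 0.1, and the same holds with 1 library left out. Without 25°C replicate 1 the difference was -0.11 Dmel rpm and without 25°C replicate 3 it was -0.60 (exact permutation test, p = 0.1). Nothing in the sources says how the 3 libraries of a temperature were separated, so p-values measure the spread between these libraries.

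By strand and by share, the libraries of the 2 temperatures overlapped in each of the 4 comparisons. Sense reads were at 1.21, 1.34 and 0.71 Dmel rpm at 29°C, against 1.28, 1.69 and 1.34 at 25°C, a difference in means of -0.35 (exact permutation test, p = 0.3, adjusted p = 0.625). This difference was -0.16 without 29°C replicate 3, -0.22 without 25°C replicate 2 and -0.48 without 29°C replicate 2 (exact permutation test, p = 0.1 for the last). With each occupied position counted once, the sense difference was -0.11 (exact permutation test, p = 0.1). Antisense reads were at 1.11, 1.04 and 1.60 Dmel rpm at 29°C, against 1.92, 1.0 and 0.86 at 25°C, a difference of -0.01 (exact permutation test, p = 1, adjusted p = 1). The antisense share of the stretch was 47.9%, 43.7% and 69.4% at 29°C, against 60%, 37.2% and 39.1% at 25°C, a difference of 8.21 percentage points (exact permutation test, p = 0.5, adjusted p = 0.625). It rested on single libraries, being 0.37 points without 29°C replicate 3, 4.09 without 25°C replicate 2, 5.05 without 25°C replicate 3, 13.2 without 29°C replicate 2 and 15.5 without 25°C replicate 1. The stretch held 24.7%, 19.9% and 22.9% of the P(lacW) reads at 29°C, against 31.2%, 26.5% and 18.5% at 25°C, a difference of -2.92 points (exact permutation test, p = 0.5, adjusted p = 0.625). It was -0.01 without 25°C replicate 1, -1.61 without 29°C replicate 2 and -6.36 without 25°C replicate 3 (exact permutation test, p = 0.1 for the last). At 62 to 105 reads per library, the antisense share of a single library had an interval as wide as 28.5–50.9%. That interval takes reads as independent. They sat on only 16 to 26 positions per library, so the interval may be too narrow.

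Split into sections of 500 bp by strand and tested with limma over the whole transgene, 13 of the 14 sections of the stretch had reads in at least 3 of the 6 libraries. None of the 13 passed an adjusted p of 0.05 in limma and none had an unadjusted p under 0.05, while 1 of the 40 sections tested over all P(lacW) passed (2.5%), outside the stretch. The lowest adjusted p in the stretch was 0.77 in limma.

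**Figure D5:**
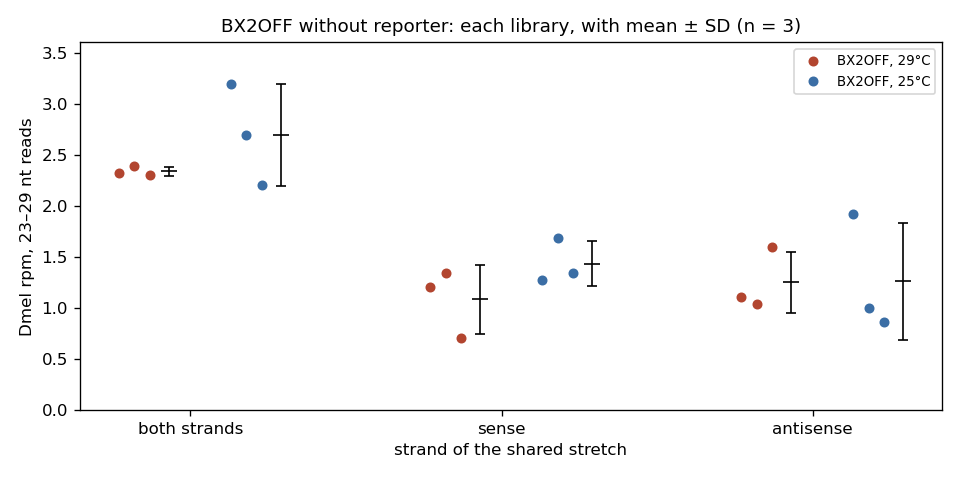
Level of the shared stretch in each BX2OFF library without the reporter, in Dmel rpm of 23–29 nt reads, for both strands together, sense and antisense, with 29°C left of 25°C and black marks for the mean ± SD (n = 3 each). The groups overlap in each of the 3 pairs.

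The reads of the second experiment sat on few positions and mostly in single libraries. Each library had reads at 16 to 26 positions of the stretch. Of the 105 positions occupied in any of the 6, 91 had reads in 1 library, 8 in 2, 4 in 3, 1 in 4, 1 in 5 and none in all 6. The position found in 5 libraries was again sense 1835, with 11, 9 and 3 reads at 29°C, against 0, 9 and 9 at 25°C. It was thus the highest or second highest sense position in BX2Θ, BX2* and BX2OFF with the reporter and the position found most often without the reporter. Sense position 2317, found in 4 libraries, had 6, 0 and 1 reads at 29°C, against 0, 4 and 2 at 25°C. It has the same coordinate as the highest antisense position of BX2Θ, where the sense strand had 15 reads in BX2Θ and 31 in BX2*. Of the 45 sense positions occupied in the second experiment, 43 (95.6%) also had reads in BX2Θ, which is 3.46% of its sense positions. Of the 60 antisense positions, 56 (93.3%) did, which is 4.003% of its antisense positions. Over all positions of the stretch, BX2Θ had reads at 35.0% on the sense and 39.4% on the antisense strand. The overlap with BX2* was similar, at 93.3% of the 45 and 85% of the 60, beside 27.6% and 29.4% of all positions.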

How the data were processed

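Ovarian small RNAs were sequenced by the authors, matched with Bowtie to genome release 5.49 and to P(lacW), and kept with at most 1 mismatch. The deposited values are signed reads per 5′ position times 1 factor per library, to 1000000 miRNA reads in the first experiment and to the smallest genome-matched total in the second. Division by the smallest value of each library gave whole reads for 100% of values (tolerance 0.01 reads), and these were used. The design assumed rpm values, and its tests were run on levels computed from the reads. The tables are marked "uni" in the first and "mul" in the second experiment, which the sources used here do not define. Library totals come from the study's annotation tables, read by digits alone.

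Positions 87 to 3633 were taken in the numbering of the tables, assumed to be that of the study. No position is given in the sources used here for the border of P with lacZ. Ratios have intervals from the Wilson share of the reads, and ratios of ratios have log-scale counting intervals. Pair counting was run on simulated data with strong planted 10 nt overlaps on an even background (highest in 50 of 50 runs). This checks the counting only, since it cannot show whether a weak excess among uneven piles would be found. With limma 3.58.1, log2(Dmel rpm + 0.1) was fitted over sections with reads in at least 3 libraries, with Benjamini-Hochberg adjustment. Python 3.11.15 was used otherwise.

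Named positions were the 5 most abundant per strand in BX2Θ and BX2*, the 2 most abundant per strand in BX2OFF with the reporter, the 5 leading 10 nt pairs of each active cluster, positions with at least 50 reads in one active cluster and 0 in the other, and positions in at least 4 libraries of the second experiment. Named bins were the 3 highest and 3 lowest in BX2Θ by antisense share and by the ratio to BX2*. Positions 458 and 459, bin 3 and the 24 and 25 nt pairs were named after their values were seen. The region, lists and tests were chosen with earlier results of these data known. Alternatives were other totals, bin sizes, pair counts, peak windows, trimmed edges, pseudocounts and left-out libraries.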

Additional observations from a re-analysis of the deposited data

How the results depend on the processing

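With genome-matched reads as the total, BX2* had 34.6 times the reads of BX2OFF in the stretch and BX2Θ had 1.85 times those of BX2*. Without the most abundant position on each strand, BX2Θ had 2.13 times the level of BX2*, and the antisense share was 54.6% in BX2Θ and 50.1% in BX2*, past 50% as with each occupied position counted once (51.6%). With each pair of occupied positions counted once, the 10 nt z-score in BX2Θ was 0.43, and without its 2 antisense positions empty in BX2* it was 1.17. Bins with BX2Θ at least 2 times BX2* numbered 78 of 135 at 50 bp and 23 of 36 at 200 bp, 57.8% and 63.9%, where the number of bins differs by construction. These counts cover the stretch only, without a share over all P(lacW) beside them. The difference in antisense level, 29°C minus 25°C, was 0.19 miRNA rpm, and 0.024 Dmel rpm with positions counted once, and ran from -0.21 to 0.32 Dmel rpm when 1 library was left out. The difference in the share of P(lacW) reads was 0.91 points with positions counted once, and ran from -6.36 to -0.01 when 1 library was left out. Left-out libraries moved the difference in level from -0.60 to -0.11 Dmel rpm, in sense level from -0.48 to -0.16 and in antisense share from 0.37 to 15.5 points. The limma count over all P(lacW) was 0 with a pseudocount of 0.5 and again 0 whichever library was left out. The causes of these shifts were not tested. Of the 82 values, 59 kept their direction and their side of the threshold or stayed within their counting interval. These 59 include left-out-library values given above. For the temperature differences this describes direction only, since their exact test cannot give a p below 0.1. Their size could still change, as the ranges above show. No paired analysis was possible because the labels give the libraries no replicate numbers, and those used here follow accession order. Depth limits BX2OFF: 385 reads in the first experiment and 62 to 105 per library in the second.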
